A study of Homo sapiens with 15 samples.

Results

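The genes described here are TNFSF10, which encodes the death ligand TRAIL, and 9 genes of its receptors, of related receptors and of their signalling: TNFRSF10A, TNFRSF10B, TNFRSF10C, TNFRSF10D, TNFRSF9, FAS, TNFRSF1A, CFLAR and CASP8. They were taken by symbol from a table of 18858 genes, and all 10 were present in it. TNFSF10 was chosen by its measured rise when YAP and TAZ were knocked down together. Its values in any comparison that uses the co-knockdown or siControl libraries are therefore given as a description, with no test, and counts in those comparisons are over the other 9 genes.

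RNA was measured in MDA-MB-231, a human breast adenocarcinoma cell line, in 5 groups of 3 libraries. Control cells were not transfected, siControl cells received a non-targeting siRNA pool, and siYAP, siTAZ and siYAP+TAZ cells received siRNA pools against YAP1, against WWTR1 (the gene of TAZ) or against both. After 48 h of knockdown the transfected cells spent 5 to 6 h on gelatin-coated plates and were then lysed for RNA, and the protocol does not describe the handling of the untransfected cells separately. Each siRNA had the same final concentration, and the co-knockdown cells received both pools. The study describes the RNA data as coming from 3 independent experiments, but neither it nor the labels say which libraries were made together.

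TRAIL is a ligand of the TNF superfamily that trimerizes and binds 4 related membrane receptors. TNFRSF10A (DR4) and TNFRSF10B (DR5) carry an intracellular death domain, which recruits the adaptor FADD and caspase-8 and can start apoptosis, whereas TNFRSF10C (DcR1) lacks the intracellular part and TNFRSF10D (DcR2) has a truncated death domain, so both are known as decoys. FAS and TNFRSF1A (TNF receptor 1) are death receptors for other ligands, and CFLAR encodes FLIP, a caspase-8 homologue that restrains its activation. TNFRSF9 (4-1BB, CD137) belongs to the same receptor superfamily but has no death domain and is best known as a costimulatory receptor of lymphocytes. YAP and TAZ are transcriptional coactivators of the Hippo pathway that act mainly through TEAD factors.

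The siRNA sequences show where both targeting pools act. For the siControl pool only 1 sequence is listed in the source used here. They are given 5′ to 3′ as the strand that matches the mRNA, in lower case with no part marked. Coordinates are of GRCh38 and exons are those of the Ensembl canonical transcript in GENCODE 44.
siControl 1: ugguuuacaugucgacuaa
siYAP 1, YAP1 exon 8, chr11:102227471-102227489: gcaccuaucacucucgaga
siYAP 2, YAP1 exon 9, chr11:102229814-102229832: gaacauagaaggagaggag
siYAP 3, YAP1 exon 9, chr11:102229900-102229918: ccaccaagcuagauaaaga
siYAP 4, YAP1 exon 2, chr11:102114375-102114393: ggucagagauacuucuuaa
siTAZ 1, WWTR1 exon 2, chr3:149657174-149657192: aagccuagcucguggcgga
siTAZ 2, WWTR1 exon 7, chr3:149520895-149520913: aggaacaaacguugacuua
siTAZ 3, WWTR1 exon 7, chr3:149520960-149520978: ggacaaacacccaugaaca
siTAZ 4, WWTR1 exon 5, chr3:149527864-149527882: gacaugagauccaucacua
All 8 targeting siRNAs match coding sequence. Over all GENCODE 44 transcripts, full matches were found in YAP1 and WWTR1 themselves and, for siYAP 1 and siYAP 4, in the pseudogene YAP1P1. The listed siControl sequence had no full match.

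The stretches upstream of TNFSF10 and TNFRSF9 are shown because TNFRSF9 followed TNFSF10 most closely of the other genes with enough counts to be compared. Each holds the 250 bases before the RefSeq start on the minus strand of GRCh38.p14, written 5′ to 3′ in the direction of transcription, with motif matches in capitals.
TNFSF10, chr3:172523431-172523680: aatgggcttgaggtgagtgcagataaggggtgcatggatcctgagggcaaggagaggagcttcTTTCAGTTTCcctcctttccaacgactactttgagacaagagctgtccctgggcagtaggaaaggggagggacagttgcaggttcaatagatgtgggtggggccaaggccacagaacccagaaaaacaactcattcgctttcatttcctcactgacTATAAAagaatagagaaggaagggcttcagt
TNFRSF9, chr1:7940840-7941089: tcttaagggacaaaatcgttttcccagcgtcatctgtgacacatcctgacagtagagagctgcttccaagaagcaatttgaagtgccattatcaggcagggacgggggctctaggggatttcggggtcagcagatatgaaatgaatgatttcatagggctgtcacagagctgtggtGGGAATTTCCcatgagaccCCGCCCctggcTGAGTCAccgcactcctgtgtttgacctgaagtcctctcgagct
In TNFSF10 the capitals mark a match to the interferon-stimulated response element (2 copies of GAAA with any 2 bases between them, here as the reverse complement) that begins 187 bases before the start, and a TATA box (TATAAA) that begins 31 bases before it. In TNFRSF9 they mark a kappaB motif that begins 74 bases before the start, a GC box (GGGCGG, here as the reverse complement) at 55 bases and an AP-1 motif (TGANTCA) at 44 bases. Alternative transcripts of both genes start further upstream in GENCODE 44 and overlap these windows.

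These motifs and 2 others were searched on both strands, with overlapping matches allowed, in 35116 RefSeq windows of 300 bases that run from 250 before to 50 after each start. The response element was found in 3.57% of all windows, the TATA box in 11.5%, the kappaB motif in 0.558%, the GC box in 45% and the AP-1 motif in 7.71%. Windows were listed for 6 of the 10 genes. The GC box and the AP-1 motif were each found in 4 of the 6 genes, namely CASP8, CFLAR, FAS and TNFRSF9, and the response element in CASP8 and TNFSF10. The TEAD motif (GGAATG, 14% of all windows) and the FOXO motif (TGTTTAC, 3.42%) were found in 0 of the 6. A match describes letters in these windows and says nothing of binding.

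Libraries held 18696737 to 30107312 counts. YAP1 had 4202 to 4431 normalized counts (counts scaled to a common library size) in siControl, against 1796 to 2240 after co-knockdown. In siYAP it had 761, 1013 and 2764, so the library labelled siYAP 23 kept more YAP1 than any co-knockdown library. WWTR1 had 1579 to 1995 normalized counts in siControl, 254 to 828 in siTAZ and 1123 to 1284 in siYAP+TAZ. Every library of a targeted group lay below every siControl library for its target, but with the edgeR quasi-likelihood test and Benjamini-Hochberg adjustment over all genes WWTR1 in siTAZ passed (adjusted p = 0.0187), and YAP1 in siYAP (adjusted p = 0.0992), YAP1 in siYAP+TAZ (adjusted p = 0.0723) and WWTR1 in siYAP+TAZ (adjusted p = 0.199) did not. The study reported efficient knockdown of both targets in this line, by RT-qPCR for the mRNA and by Western blot for the protein. Of 14 known YAP and TAZ targets, 12 passed the adjusted p threshold downwards and 1 upwards in siYAP+TAZ against siControl, where 8.39% and 9.97% of all genes did. The 7 expressed markers of the line summed to 112800 to 144000 normalized counts in every group. Of the markers expected to be low in this line, ERBB2 had 1834 to 3005 counts, GATA3 379 to 697, EPCAM 209 to 389 and PGR 0 to 7, and ESR1 and CDH1 were not among the genes analysed here. Of 8 leukocyte markers only PTPRC (0 to 6 counts) and CD14 were among the genes analysed. CD14, a monocyte gene, had 15 to 22 raw counts in siControl and 32 to 39 in siYAP+TAZ and rose (log2 fold change 1.20 ± 0.24 SE, adjusted p = 0.00197). Whether its rise bears on the genes below was not tested. In bulk RNA, fewer cells of a type and less RNA per cell cannot be told apart.

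TNFSF10 (chr3:172505508-172523475, minus strand) is the ligand gene. It had 184, 194 and 222 normalized counts in Control and 170, 238 and 269 in siControl. In siYAP it had 251, 283 and 393, in siTAZ 425, 488 and 600, and in siYAP+TAZ 695, 743 and 977. Both control groups overlapped, siYAP overlapped siControl but not Control, every siTAZ library lay above every siYAP library, and every co-knockdown library lay above all 12 others. The means were 199.9 ± 20.0 (SD, n = 3) in Control, 225 ± 50.8 in siControl, 309 ± 74.5 in siYAP, 504 ± 88.7 in siTAZ and 805 ± 151 in siYAP+TAZ.

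As a description, the log2 fold change of TNFSF10 against siControl was 0.45 ± 0.20 (SE) in siYAP, 1.15 ± 0.20 in siTAZ and 1.83 ± 0.20 in siYAP+TAZ, the last equal to a 3.56-fold level. The co-knockdown was 1.38 ± 0.19 above siYAP and 0.68 ± 0.19 above siTAZ on the log2 scale. Its departure from the sum of the 2 single changes was 0.23 ± 0.27, an amount smaller than its error. The siControl libraries were 0.18 ± 0.21 above Control, also smaller than the error.

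TNFSF10 could be tested where neither co-knockdown nor siControl libraries form the contrast, although those libraries still enter the common estimate of spread. TNFSF10 was higher in siTAZ than in untransfected Control cells, with a log2 fold change of 1.33 ± 0.20 (SE), a 2.52-fold level, and an adjusted p of 0.00354 (edgeR quasi-likelihood test). All 3 siTAZ libraries lay above all 3 Control libraries. Against Control, the effects of transfection and of the knockdown cannot be told apart. In siYAP the value was 0.64 ± 0.20 with an adjusted p of 0.16, so TNFSF10 did not pass there, although all 3 siYAP libraries lay above all Control libraries. Without siYAP 23, the library with the most remaining YAP1 and the most TNFSF10 of its group, the value was 0.43 (adjusted p = 0.406). The difference between the siTAZ and siYAP effects on TNFSF10 was not tested.

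**Figure D1:**
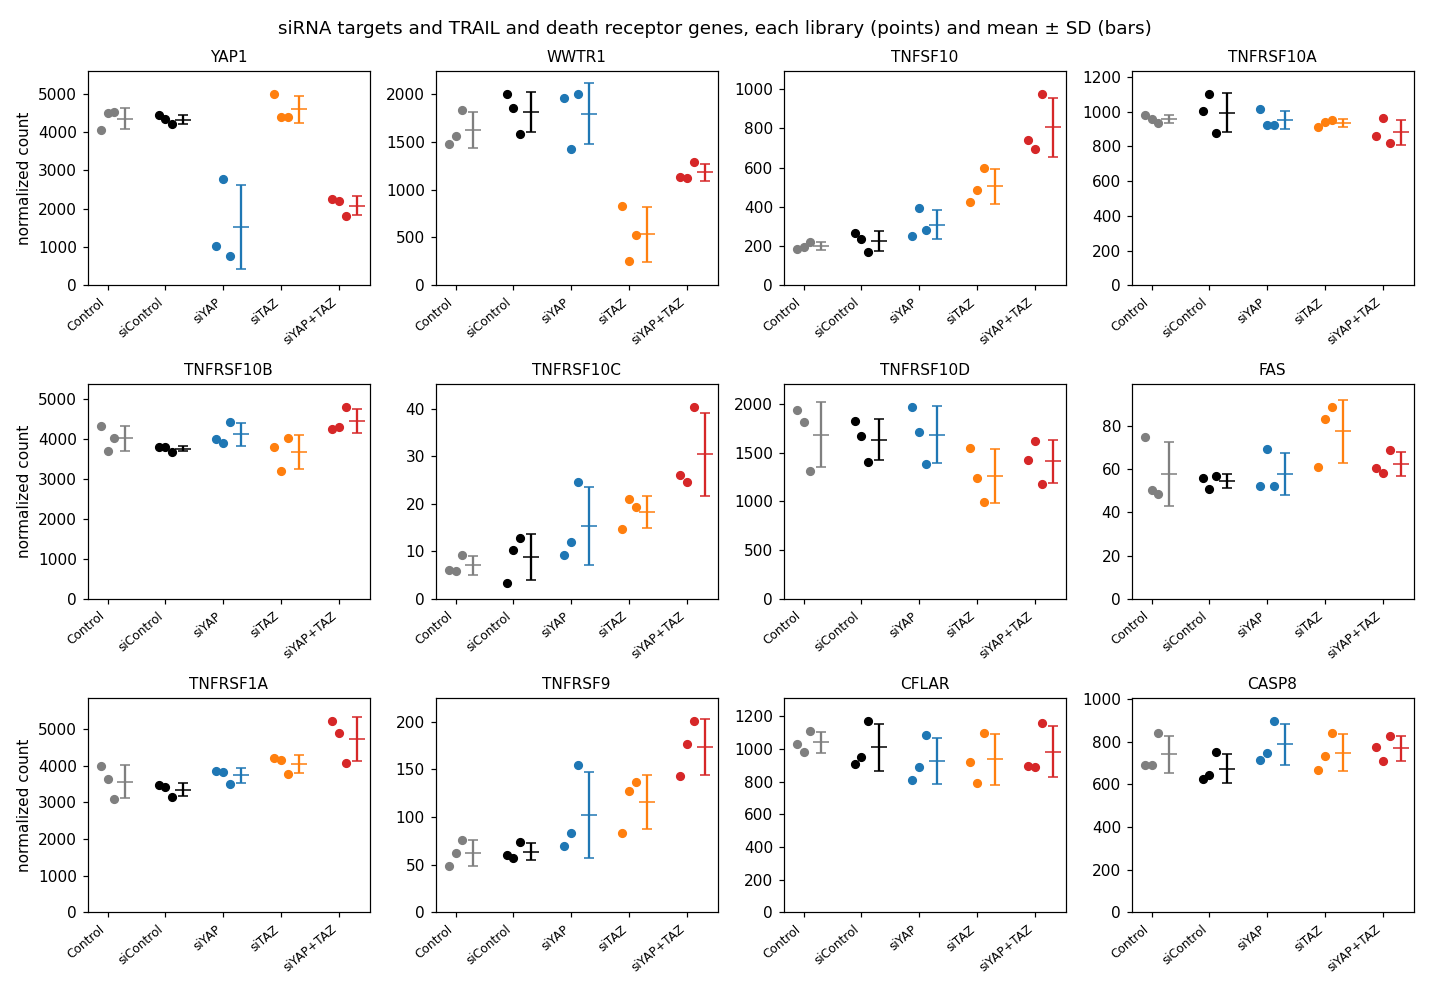
Normalized counts (y axis, each panel from 0) of YAP1, WWTR1 and the 10 genes in the 5 groups (x axis), with a point for each library and a bar for the mean ± SD of 3 libraries. TNFSF10 lies at 695 to 977 in siYAP+TAZ and at 170 to 269 in siControl, while TNFRSF10A, CFLAR and CASP8 overlap between these groups.

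A gene was called where the adjusted p was at most 0.05 and the absolute log2 fold change at least 1, the thresholds the study used. In siYAP+TAZ against siControl 2 of the 9 other genes were called, TNFRSF10C and TNFRSF9, against 3.46% of all genes. By the adjusted p alone TNFRSF1A was added, giving 3 of 9 against 18.4% of all genes. All 3 were higher in the co-knockdown, a direction in which 9.97% of all genes passed the adjusted p. The median log2 fold change of the 9 was 0.20, that of all genes -0.0048. The 9 genes were chosen with earlier results of these data known. Their counts beside the shares of all genes are therefore a description, and no enrichment was tested.

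The 4 TRAIL receptor genes lie together on chromosome 8 of GRCh38. TNFRSF10B (chr8:23020133-23069031, minus strand), one of the 2 receptors with a full death domain, had 3679 to 3796 normalized counts in siControl and 4235, 4295 and 4789 in siYAP+TAZ. The groups did not overlap, but the log2 fold change was 0.24 ± 0.086 (SE) and the adjusted p 0.0571. With DESeq2 under the study's settings the same gene passed (0.25, adjusted p = 0.0401), so it stands at the threshold. Against untransfected Control (3701 to 4326 normalized counts), which overlapped the co-knockdown, the log2 fold change was 0.15 (adjusted p = 0.263 by edgeR and 0.295 by DESeq2). Of its exonic bases 7.52% overlap RHOBTB2 on the opposite strand. Against siTAZ the co-knockdown was 0.28 ± 0.086 higher (adjusted p = 0.0691), and siYAP and siTAZ themselves differed from siControl by 0.13 and -0.033.

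TNFRSF10A (chr8:23190452-23225102, minus strand), the other receptor with a death domain, had 878 to 1103 normalized counts in siControl and 819 to 961 in siYAP+TAZ. These ranges overlapped and the log2 fold change was -0.18 ± 0.086 (adjusted p = 0.175), so both death-inducing receptors had values of opposite sign, neither of which passed. Of the exonic bases of TNFRSF10A, 16.7% overlap antisense genes. Here and for TNFRSF10B such reads cannot be told apart from the gene's own, because the strand setting of the counting is not given in the sources used here.

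TNFRSF10C (chr8:23102921-23117445, plus strand), the decoy without an intracellular part, had the fewest counts of the 10 genes. There were 4, 11 and 12 raw counts in the siControl libraries, 5, 6 and 7 in Control, 12, 15 and 24 in siYAP, 15, 17 and 18 in siTAZ and 22, 23 and 44 in siYAP+TAZ. Every co-knockdown library lay above every siControl and every siTAZ library in normalized counts. The log2 fold change against siControl was 1.83 ± 0.42 (SE), with an adjusted p of 0.0049, and against Control 2.13 ± 0.45, with an adjusted p of 0.00254. The gene is uncertain, since 33% of its exonic bases are shared on the same strand with 2 other annotated genes and 28% of its 50-base stretches occur in other genes.

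TNFRSF10D (chr8:23135588-23164027, minus strand), the decoy with a truncated death domain, had 1403 to 1821 normalized counts in siControl, 997 to 1548 in siTAZ and 1181 to 1620 in siYAP+TAZ. Its log2 fold change was -0.21 ± 0.19 in siYAP+TAZ (adjusted p = 0.515) and -0.37 ± 0.19 in siTAZ (adjusted p = 0.386). The groups overlapped in both comparisons. With the run of library numbers as a block both passed by the adjusted p alone (-0.21, adjusted p = 0.0315, and -0.38, adjusted p = 0.00103), and siTAZ lay below siControl in each of the 3 runs. The 4 receptor genes thus did not move as one, and the decoy that was called was the one with few counts.

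The summed normalized counts of the 4 TRAIL receptor genes ranged from 5972 to 6623 in siControl and from 6551 to 6901 in siYAP+TAZ, which overlap. The make-up of the receptors was read per length, from RPKM, which are read counts divided by transcript length and library size. Of the summed RPKM of the 4 genes TNFRSF10B made up 51.6% to 55.7% in siControl and 56.3% to 64.2% in siYAP+TAZ. TNFRSF10A made up 19.7% to 22.3% and 16.3% to 18.7%, so neither gene's share overlapped between these groups. The untransfected Control libraries overlapped siYAP+TAZ in both shares, with 51.5% to 58.1% for TNFRSF10B and 18.3% to 20.1% for TNFRSF10A. TNFRSF10C stayed at or below 1.55% in every library. For each 100 RPKM of receptors there were 5.47 to 7.79 RPKM of TNFSF10 in siControl and 19.4 to 27.9 in siYAP+TAZ, a ratio that carries the choice of TNFSF10 and is given as a description. With 3 libraries against 3 the smallest two-sided exact permutation p is 0.1, which cannot pass 0.05, so the shares are also given as a description.

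TNFRSF1A (chr12:6328757-6342114, minus strand), which encodes TNF receptor 1, had 3151, 3426 and 3463 normalized counts in siControl. It had 3500 to 3866 in siYAP, 3765 to 4199 in siTAZ and 4072, 4895 and 5227 in siYAP+TAZ. None of the 3 knockdown groups overlapped siControl, but the Control libraries (3094 to 3980) did. The gene rose in siYAP+TAZ with a log2 fold change of 0.50 ± 0.097 (SE), below the size needed for a call, with an adjusted p of 0.00134. Against siYAP the co-knockdown was 0.34 ± 0.096 higher (adjusted p = 0.0469) and against siTAZ 0.23 ± 0.097 (adjusted p = 0.201). The pass against siYAP held in 5 of the 15 edgeR fits that leave out 1 library. It did not hold in edgeR with a filter on low counts (adjusted p = 0.0526). It held in DESeq2 (adjusted p = 0.0283) and in edgeR with the run of library numbers as a block (adjusted p = 0.00018).

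FAS (chr10:88953813-89029605, plus strand), the receptor of FAS ligand, had few counts. It had 50.9 to 56.9 normalized counts in siControl and 58.0 to 68.8 in siYAP+TAZ, which do not overlap, and 48.6 to 74.9 in Control, which overlaps both. The log2 fold change was 0.20 ± 0.21 in siYAP+TAZ (adjusted p = 0.579) and 0.50 ± 0.21 in siTAZ (adjusted p = 0.236). Neither passed. Genes on the opposite strand overlap 6.48% of the exonic bases of FAS, with the same limit as for TNFRSF10A.

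TNFRSF9 (chr1:7915871-7943165, minus strand), the costimulatory receptor, had 57.3, 59.5 and 74.0 normalized counts in siControl and 49.0, 61.8 and 76.3 in Control. It had 69.7, 83.4 and 154 in siYAP, 83.5, 128 and 136 in siTAZ and 143, 176 and 201 in siYAP+TAZ. The co-knockdown and siTAZ libraries lay above all siControl libraries, whereas siYAP overlapped siControl through its lowest library. The log2 fold change was 1.45 ± 0.27 (SE) in siYAP+TAZ, with an adjusted p of 0.00105 by edgeR. It was 0.85 ± 0.28 in siTAZ (adjusted p = 0.117) and 0.67 ± 0.27 in siYAP (adjusted p = 0.315), neither of which passed. With the run of library numbers as a block both passed by the adjusted p alone (0.84, adjusted p = 0.00151, and 0.63, adjusted p = 0.0203). The library siYAP 28 held 154 normalized counts, more than any other library outside the co-knockdown and more than the lowest co-knockdown library, and without it the siYAP value was 0.27 (adjusted p = 0.74). Of the leukocyte markers, PTPRC had 0 to 4 raw counts in the co-knockdown libraries and CD14, which rose there, had 32 to 39, and their part in the result was not tested.

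CFLAR (chr2:201116154-201176687, plus strand), the caspase-8 inhibitor, had 908 to 1174 normalized counts in siControl and 891 to 1163 in siYAP+TAZ. Its log2 fold change of -0.036 ± 0.14 had a 95% interval (normal approximation) from -0.31 to 0.24. CASP8 (chr2:201233443-201361836, plus strand), the initiator caspase recruited by death receptors, had 623 to 750 in siControl and 708 to 827 in siYAP+TAZ, which overlap. Its log2 fold change was 0.20 ± 0.11, with an interval from -0.026 to 0.42 (adjusted p = 0.264). A change of 1 on the log2 scale lies outside both intervals. The ratio of CFLAR to CASP8 raw counts, a description, was 1.46 to 1.57 in siControl and 1.16 to 1.41 in siYAP+TAZ, which do not overlap. It was 1.13 to 1.21 in siYAP and 1.08 to 1.37 in siTAZ, also below siControl, and 1.32 to 1.498 in Control, which overlaps both siControl and siYAP+TAZ. Of the exonic bases of CFLAR 10.1% overlap genes on the opposite strand.

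**Figure D2:**
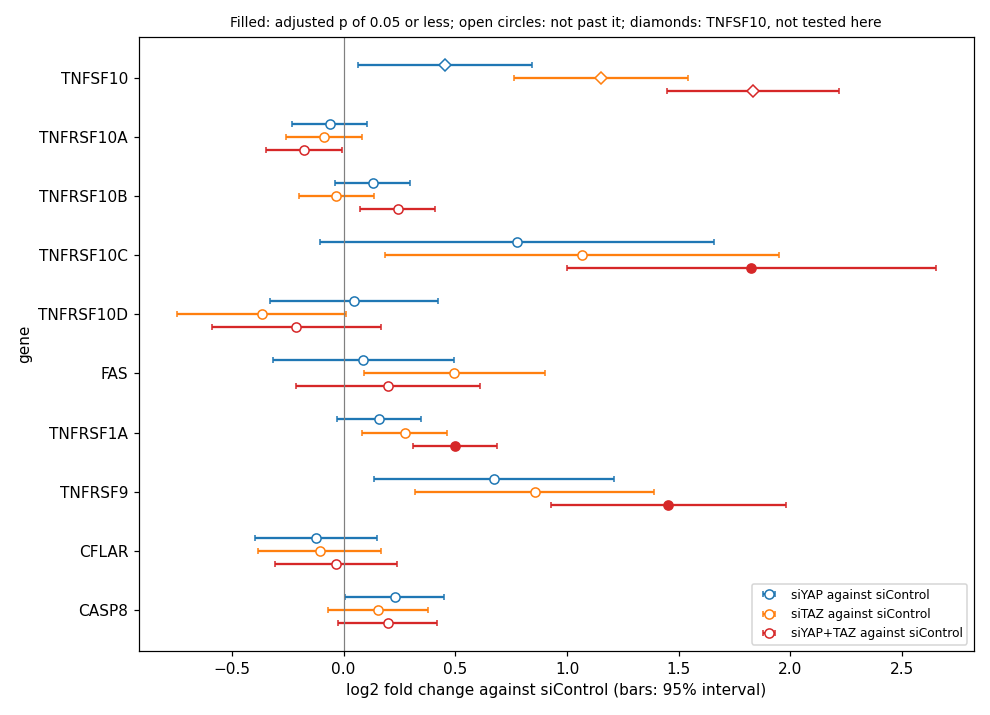
Log2 fold change against siControl (x axis, bars are 95% intervals) of the 10 genes (y axis) in siYAP, siTAZ and siYAP+TAZ, each with 3 libraries against 3. Filled circles passed the adjusted p of 0.05 and are TNFRSF10C, TNFRSF1A and TNFRSF9 in siYAP+TAZ, while the diamonds of TNFSF10 carry no test.

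In the fit without a block for library numbers, none of the 9 other genes passed a threshold in the single knockdowns against siControl. A fit with such a block, described with the alternatives, passed some of them. In siYAP against siControl edgeR called 0 of 9 (0.0955% of all genes) and passed 0 by the adjusted p alone (0.933%), with 1 at an unadjusted p under 0.05 (11.9% of all genes), and DESeq2 called 0. In siTAZ against siControl it called 0 (0.212%) and passed 0 by the adjusted p alone (2.03%), with 4 at an unadjusted p under 0.05 (16% of all genes), and DESeq2 called 0. Those 4 were TNFRSF10C, FAS, TNFRSF1A and TNFRSF9, all with higher values in siTAZ. Against Control, TNFSF10 was the only gene of the 10 called in siTAZ (0.408% of all genes, 3.4% by the adjusted p alone), and in siYAP edgeR and DESeq2 called none (0.133% of all genes, 1.46% by the adjusted p alone), with 3 at an unadjusted p under 0.05 (12.8% of all genes). With DESeq2 TNFRSF9 also passed by the adjusted p alone in siTAZ against Control (log2 fold change 0.89, adjusted p = 0.0386).

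The remaining comparisons, also without the block, bear on what each siRNA pool added. Every co-knockdown library kept more WWTR1 than every siTAZ library and more YAP1 than the siYAP libraries other than siYAP 23. These contrasts, and the departure from the sum, therefore also carry a difference in depletion of the shared target, as do those of TNFSF10 above. In siYAP+TAZ against siYAP edgeR and DESeq2 called 0 of the 9 (0.742% of all genes), with 3 at an unadjusted p under 0.05 (19.2%), and TNFRSF1A passed by the adjusted p alone (5.13% of all genes). In siYAP+TAZ against siTAZ both called 0 (0.78% of all genes), with 0 by the adjusted p alone in edgeR (5.44%), 3 at an unadjusted p under 0.05 (19.3%) and 1, TNFRSF10B, by the adjusted p alone in DESeq2. In siYAP+TAZ against Control TNFRSF10C and TNFRSF9 were called (3.79% of all genes) and TNFRSF1A passed by the adjusted p alone (19.4%). Transfection itself, siControl against Control, gave 0 calls among the 9 by either tool, with 0% of all genes by either rule. At an unadjusted p under 0.05 there were 0 of the 9 (2.11% of all genes). For the departure of the co-knockdown from the sum of both single changes, edgeR and DESeq2 called 0 of the 9 (0.0053% of all genes, 0.0106% by the adjusted p alone), with 0 at an unadjusted p under 0.05 (5.85% of all genes).

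Levels between genes were compared per length, in RPKM over the canonical transcript. In siControl the order ran from TNFRSF1A (61.4 to 67.5 RPKM) through TNFRSF10B (38.9 to 40.2), TNFRSF10D (16.8 to 21.8), TNFRSF10A (13.8 to 17.3), CASP8 (9.92 to 11.9), TNFSF10 (3.82 to 6.06), CFLAR (2.63 to 3.40), FAS (0.58 to 0.65) and TNFRSF9 (0.41 to 0.53) to TNFRSF10C (0.10 to 0.39). Only TNFRSF10D and TNFRSF10A overlapped among neighbours in this order. The place of CFLAR depends on its canonical transcript of 14612 bases, against 2659 for CASP8 and 1876 for TNFSF10. In mean normalized counts of siControl CFLAR (1011) lay above CASP8 (672) and TNFSF10 (225). In siYAP+TAZ TNFSF10 reached 15.7 to 22.0 RPKM and overlapped TNFRSF10D (14.1 to 19.4), above TNFRSF10A (12.9 to 15.1), which overlapped CASP8 (11.3 to 13.2). TNFRSF10C (0.75 to 1.22) overlapped both FAS (0.66 to 0.79) and TNFRSF9 (1.03 to 1.45) there.

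**Figure D3:**
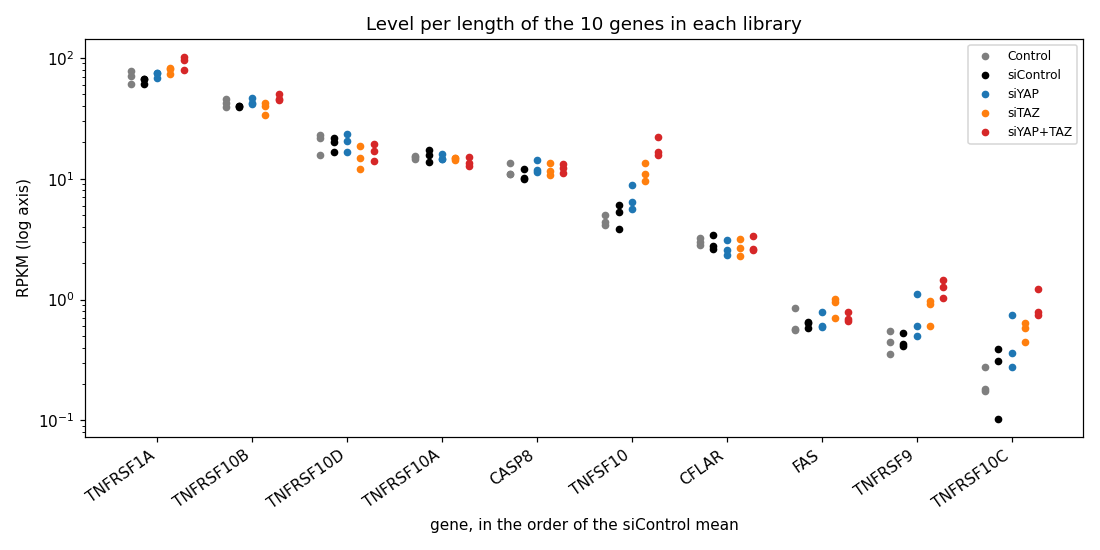
RPKM (y axis, log scale) of the 10 genes in each of the 15 libraries, ordered by the siControl mean (x axis) and coloured by group. TNFSF10 moves from 3.82 to 6.06 in siControl to 15.7 to 22.0 in siYAP+TAZ, into the range of TNFRSF10D.

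The genes around these 10 in the pathway were read from lists of known members. Of 21 genes of the death receptor signalling complex (adaptors, kinases, caspases and mitochondrial factors) 0 were called by edgeR or DESeq2 in siYAP+TAZ against siControl, 12 had an unadjusted p under 0.05 (30.3% of all genes) and 6 passed the adjusted p alone, 3 in each direction, against 9.97% of all genes upwards and 8.39% downwards. CASP10 and TRAF5 were among those that rose, and TRAF2, TRAF3 and DAP3 fell. CASP10, an initiator caspase close to caspase-8, had 78.9 ± 20.5 (SD, n = 3) normalized counts in siControl and 122 ± 14.3 in siYAP+TAZ (log2 fold change 0.63 ± 0.17 SE, adjusted p = 0.0142). DAP3 and CYCS, a mitochondrial ribosome protein and cytochrome c, had the highest means of the list over all 15 libraries. Their log2 fold changes were -0.28 ± 0.070 (adjusted p = 0.00855) and -0.27 ± 0.099 (adjusted p = 0.0704). The list's median was 8e-04 on the log2 scale. In this list and those below, genes that passed the adjusted p alone were named after their values were seen.

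Of 19 inhibitors of death receptor signalling 0 were called by edgeR or DESeq2 and 7 had an unadjusted p under 0.05 (30.3% of all genes). TNIP1 rose and TNFAIP3, PEA15 and BCL2 fell by the adjusted p alone, 1 and 3 of 19 against 9.97% of all genes upwards and 8.39% downwards, with a list median of -0.12. PEA15, a death effector domain protein that can bind FADD and caspase-8, had 12040 ± 890 normalized counts in siControl and 8618 ± 165 in siYAP+TAZ (log2 fold change -0.48 ± 0.072, adjusted p = 0.000134). BCL2L1, the anti-apoptotic BCL-xL, had the highest mean of the list over all 15 libraries, although not in siControl. It had 11307 ± 170 in siControl and 10033 ± 537 in siYAP+TAZ (log2 fold change -0.17 ± 0.071, adjusted p = 0.102).

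Among 10 other ligands of the TNF superfamily, 3 were called upwards and 0 downwards, against 3.14% and 0.318% of all genes, with a list median of 0.30. TNFSF15 (TL1A) had 89.5 ± 5.67 normalized counts in siControl and 246 ± 9.02 in siYAP+TAZ (log2 fold change 1.46 ± 0.20, adjusted p = 6.43e-05). EDA, the ectodysplasin ligand, and TNFSF13B, the B cell factor BAFF, were called at few counts, 11 to 15 against 18 to 33 for EDA and 3 to 6 against 12 to 13 for TNFSF13B. The 2 of these ligands with the highest means over all 15 libraries, TNFSF12 (log2 fold change 0.33 ± 0.14, adjusted p = 0.115) and TNFSF9, the ligand of TNFRSF9 (0.088 ± 0.20, adjusted p = 0.815), did not pass. Among 14 other receptors of the superfamily TNFRSF11B, the soluble decoy osteoprotegerin that also binds TRAIL, was called downwards, with a mean of 44.6 ± 10.95 normalized counts before and 22.3 ± 6.29 after co-knockdown (log2 fold change -1.02 ± 0.31, adjusted p = 0.0269). TNFRSF21 (-0.24 ± 0.23, adjusted p = 0.528) and TNFRSF12A (-0.066 ± 0.065, adjusted p = 0.545) had the highest means over all 15 libraries and did not pass, and the list's median was 0.075.

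The other lists hold genes under transcription factors that are known to act on TNFSF10 or its receptors. Of 30 interferon-stimulated genes 16 passed the adjusted p upwards and 0 downwards, against 9.97% and 8.39% of all genes. Of these 5 were called, against 3.14% of all genes called upwards, and the list median was 0.56. OAS2, an antiviral oligoadenylate synthetase, rose from 222 ± 18.6 to 494 ± 71.1 normalized counts (log2 fold change 1.16 ± 0.15, adjusted p = 2.57e-05), and MX2 (1.64 ± 0.28), ISG20 (1.64 ± 0.28) and IFI44L (1.66 ± 0.38) were also called. IFIT1, IFIT2 and IFIT3, also of this list, had log2 fold changes between 0.14 and 0.28 and did not pass. These 3 were also named after their values were seen.

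Of 15 FOXO targets 5 passed upwards and 1 downwards, against 9.97% and 8.39% of all genes, with a median of 0.11. CCNG2 (log2 fold change 1.52 ± 0.19), an atypical cyclin, PIK3IP1 (1.92 ± 0.29), an inhibitor of PI3 kinase, FBXO32 (1.06 ± 0.18), a ubiquitin ligase subunit, and SESN3 (1.13 ± 0.22), a stress-response sestrin, were called, against 3.14% of all genes called upwards. Of 18 NF-kappaB targets 2 passed in each direction, close to the shares of all genes, with a median of 0.032, and BCL3 was called (1.05 ± 0.18). Among the 14 YAP and TAZ targets CCN1 (-1.17 ± 0.13), F3 (-1.02 ± 0.16) and ANKRD1 (-1.36 ± 0.36) were called, all downwards, against 0.318% of all genes called downwards, with a median of -0.77.

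In siTAZ against siControl edgeR called none of the genes of these lists. By the adjusted p alone TNIP1, DDX58, GBP1 and ICAM1 were among those that rose, and GADD45A, CCN1 and F3 among those that fell. At an unadjusted p under 0.05 there were 2 of 21 genes of the signalling complex, 5 of 19 inhibitors, 3 of 10 ligands, 2 of 14 receptors, 9 of 30 interferon-stimulated genes, 7 of 15 FOXO targets, 4 of 18 NF-kappaB targets and 11 of 14 YAP and TAZ targets, against 16% of all genes, and DESeq2 called 1 gene, a YAP and TAZ target. In siYAP against siControl edgeR and DESeq2 called none of them, and at an unadjusted p under 0.05 there were, in the same order of lists, 6, 5, 1, 4, 12, 3, 5 and 10 genes, against 11.9% of all genes. The median of the interferon-stimulated genes was 0.335 in siYAP and 0.105 in siTAZ, a difference that was not tested.

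**Figure D4:**
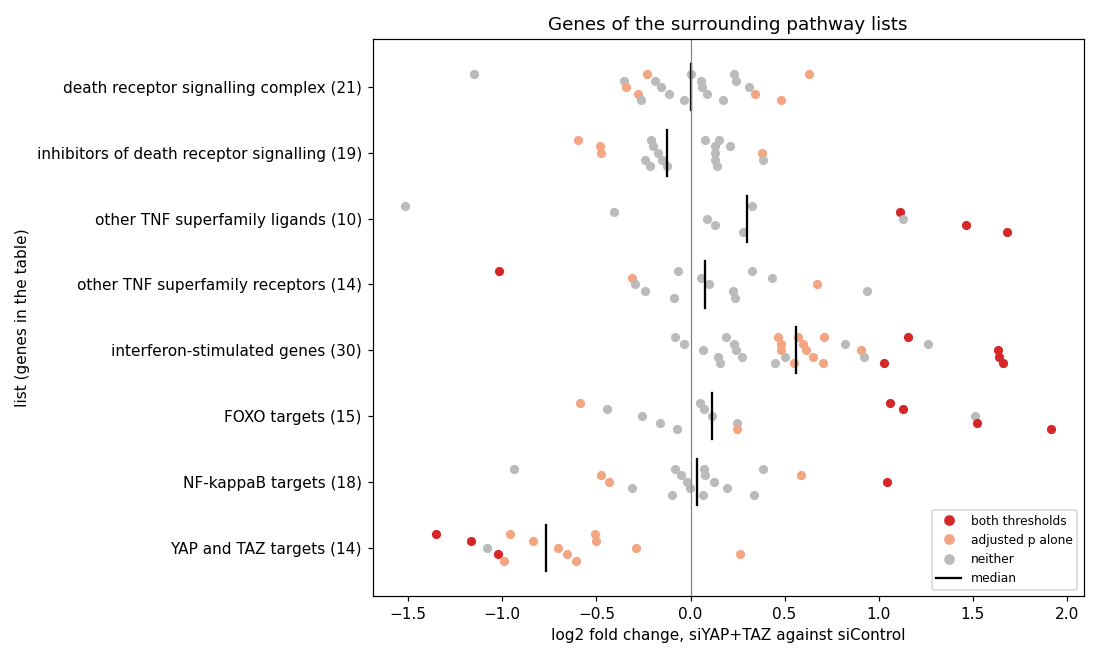
Log2 fold change in siYAP+TAZ against siControl (x axis) of each gene of 8 lists (y axis, with the number of genes in the table), coloured by whether it passed both thresholds, the adjusted p alone or neither, with a bar at the list's median. The interferon-stimulated genes have a median of 0.56 and the YAP and TAZ targets of -0.77, while the death receptor signalling complex sits around 8e-04.

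Among 13209 genes averaging 20 or more normalized counts, the 5 whose log2 CPM (counts scaled by library size) followed TNFSF10 most closely over the 15 libraries were APOL6 (Pearson r = 0.985), VEGFA (0.978), PRICKLE2 (0.977), RAB31 (0.976) and ZMIZ1 (0.973). The libraries fall into 5 groups and share the siRNA treatments, so the correlation is a description of a common order of groups, and no p is given. APOL6, an interferon-inducible apolipoprotein L, had a mean of 397 ± 67.3 (SD, n = 3) normalized counts in siControl, 496 ± 66.0 in siYAP, 647 ± 50.8 in siTAZ and 775 ± 77.7 in siYAP+TAZ. VEGFA, the vascular growth factor, had 8138 ± 488, 9603 ± 1047, 13030 ± 1285 and 16429 ± 1121 in the same groups. All 5 genes had their mean higher in siTAZ than in siYAP and highest in siYAP+TAZ, as TNFSF10 did.

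Of the other members with enough counts to be compared, TNFRSF9 was most like TNFSF10 (r = 0.849, rank 388 of the genes compared), followed by TNFRSF1A (0.73, rank 1189) and FAS (0.486). TNFRSF10B (0.346), CASP8 (0.306), CFLAR (-0.135), TNFRSF10A (-0.495) and TNFRSF10D (-0.533) followed it less or ran the other way, and TNFRSF10C had too few counts to be compared.

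**Figure D5:**
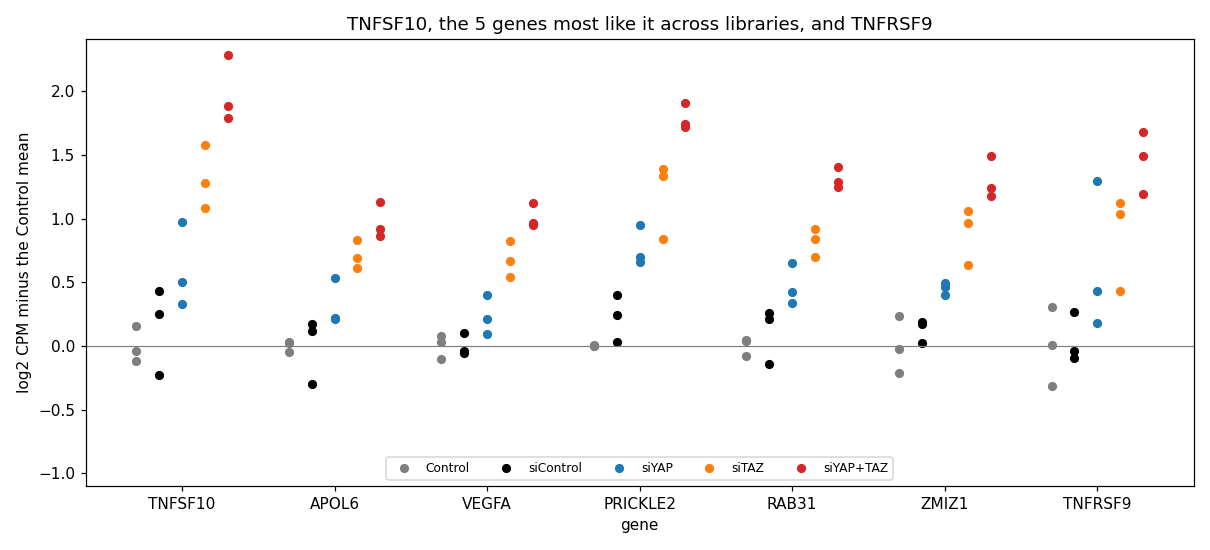
Log2 CPM minus the Control mean (y axis) of TNFSF10, the 5 genes most like it and TNFRSF9 (x axis) in each of the 15 libraries, coloured by group. In each of the 5 genes and TNFSF10 all 3 siYAP+TAZ libraries are the highest.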

How the data were processed

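The deposited table held raw counts for 18858 genes in 15 libraries of polyA RNA. The authors trimmed reads with cutadapt, aligned them to GRCh38 with STAR 2.4.2a and counted them with STAR, keeping genes with at least 5 reads in 1 library. The table also held normalized and rlog values and the authors' fold changes and p-values, which were not used. Counts were fitted here with edgeR 4.0.16 (R 4.3.3), with TMM scaling, one coefficient per group over all 15 libraries, robust quasi-likelihood tests, no filter on low counts and Benjamini-Hochberg adjustment over all genes. Errors of log2 fold changes are the estimate divided by the root of F. DESeq2 1.42.0, other size factors, a filter on low counts, a block for runs of library numbers and leaving out each library were alternatives. Likeness used log2 CPM with a prior count of 2. The model was tested on simulated counts. The strand setting of the counting is not given in the sources used here. Replicate numbers differ between groups, and no pairing was assumed. Upstream sequences are from RefSeq and gene models from GENCODE 44. Genes were named by a fixed rule: all 10 members, both siRNA targets, up to 4 called genes per list and the 2 most abundant of the first 4 lists by the mean over all 15 libraries, the 5 genes most like TNFSF10, and markers. The members and the lists were chosen with earlier results of these data known. Some genes and 1 list are not reported here.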

Additional observations from a re-analysis of the deposited data

How the results depend on the processing

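The fold changes, adjusted p and calls of the 10 genes were recomputed with DESeq2 under the study's settings, DESeq2 size factors in edgeR, edgeR's filter on low counts, a block for libraries numbered in one run, and without each of the 15 libraries. Levels per length, shares, ratios, correlations and motif counts were not. Of 228 recomputed counts and tests that answer a comparison, 223 gave the same result by the direction and threshold rule. The counts of 2 called genes in siYAP+TAZ against siControl and against Control were the same in every alternative. With the block (the labels do not say that a run shares a culture or day) 1 gene was called in siYAP+TAZ against siYAP (TNFRSF10C, log2 fold change 1.04, adjusted p = 0.0197) and 2 in siTAZ against Control, TNFRSF10C with TNFSF10. Leaving out libraries gave 0 to 1 call in siTAZ against siControl and 1 to 2 in siTAZ against Control, where TNFRSF9 was added without siTAZ 19. It gave 0 to 2 in siYAP+TAZ against siYAP, where TNFRSF10C and TNFRSF9 were added without siYAP 28. In siTAZ against Control TNFSF10 ranged from 1.19 to 1.45, with adjusted p up to 0.0268. TNFRSF10B in siYAP+TAZ against siControl passed the adjusted p alone in DESeq2, with DESeq2 size factors, with the filter, with the block and in 3 of the 15 fits that leave out 1 library. Without siYAP 23 the described TNFSF10 difference between siYAP+TAZ and siYAP was 1.59. Over all genes the calls against siControl with the block were 72 in siYAP, 152 in siTAZ and 831 in siYAP+TAZ, where the unblocked fit had 18, 40 and 652. By the adjusted p alone the block passed TNFRSF9 in siYAP against siControl (0.63, adjusted p = 0.0203, 6.1% of all genes). In siTAZ it passed TNFRSF9, TNFRSF1A and TNFRSF10D (10.3% of all genes), the last with -0.38 (adjusted p = 0.00103) and lower in siTAZ than in siControl in all 3 runs. In siYAP+TAZ against siControl it passed 6 of the 9 other genes where the unblocked fit passed 3 (28.6% of all genes), adding TNFRSF10B, TNFRSF10D (-0.21, adjusted p = 0.0315) and CASP8 (0.20, adjusted p = 0.0388). It passed 4 in siYAP+TAZ against siYAP (14.6% of all genes; TNFRSF9, TNFRSF10C, TNFRSF10D, TNFRSF1A), 3 against siTAZ (14.8%; TNFRSF9, TNFRSF10B, TNFRSF1A), 4 against Control (29.4%), TNFRSF9 in siYAP against Control (7.13%) and, beside TNFSF10, 4 in siTAZ against Control (13.8%; TNFRSF9, TNFRSF10C, TNFRSF10D, TNFRSF1A). The labels give the groups no shared replicate number. In a check made after the calls were seen, deviations from the group mean correlated at over 0.1 in 26 of 30 pairs of libraries of the same run (median 0.391) and 16 of 60 pairs of other runs (median -0.315), and 10 of 15 libraries correlated best with one of their own run. Not every pair of a run passed, which was the condition for treating runs as pairs, and the fit without the block was kept as the reported one. Each run of numbers (16 to 20, 21 to 25 and 26 to 30) holds 1 library of each group, so the reported fit may ignore a pairing. Genes that did not pass without the block are to be read with that limit. TNFRSF10C had 4 to 44 counts per library, which limits its precision. The cause of these shifts was not tested.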
